A study of Zea mays with 9 samples.

Results

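Severe and mild water deficit stress were compared directly in the maize primary root growth zone, with 3 severe libraries set against 3 mild libraries out of the 9 libraries of the series. The 6 libraries were chosen by the water status on their labels and by no measured value. All roots came from seedlings of the inbred line B73, grown in vermiculite in the dark and harvested 26 h after transplanting to a water potential of -0.3 MPa (mild, replicates 1, 3 and 4) or -1.6 MPa (severe, replicates 1, 2 and 5). The 3 well-watered libraries (-0.02 MPa, replicates 1, 2 and 3) entered the same fit and are printed as a reference. Each library came from the apical 1 cm of 5 pooled primary roots, root cap included. According to the paper the growth zone becomes shorter as the deficit increases. The segments may therefore hold different shares of growing and matured tissue, and the part of this in the results was not tested. Of 39323 gene IDs and 63074 transcripts in the tables, 22447 genes and 46599 transcripts were tested. Abundance is given as TMM-scaled CPM, the reads of a gene relative to the size of its library, always in the order mild replicates 1, 3 and 4 and severe replicates 1, 2 and 5. A gene was called where the false discovery rate (FDR) of the edgeR quasi-likelihood test was below 0.05, and every log2 fold change (log2 FC) is severe minus mild with its standard error. A single value with ± after a gene's name is its log2 FC.

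The tip of a primary root holds the root cap, the meristem in which cells divide and the zone in which they elongate before they mature. Much of the response to water deficit there runs through abscisic acid, which is made by cleavage of carotenoids, binds receptors of the PYR/PYL family and so releases SnRK2 kinases from type 2C protein phosphatases. Roots adjust by accumulating solutes, by changing cell wall extensibility along the growth zone and, under strong stress, by producing protective hydrophilic proteins such as dehydrins.

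The libraries held between 33401124 and 52072025 reads, and severe replicates 1 and 2 were the deepest. The first principal component of log2 CPM took 79.8% of the variance and placed the severe libraries at 60.1, 99.2 and 72.2, the mild libraries between -24.9 and -19.7 and the well-watered libraries between -57.8 and -51.5. Severe replicate 2 lay apart from the other severe libraries: its log2 CPM correlated with those of replicates 1 and 5 at r = 0.982 and 0.987, against 0.993 between replicates 1 and 5 and 0.994 to 0.995 among the mild libraries, across 21979 genes that are not independent of each other. It was the highest severe library for 1638 of the 1894 genes that were called and at least 2-fold higher, and without it 1863 of these 1894 were still called. The markers of the tip itself were present at every water status. The summed TPM, a level per transcript length, of 8 root tip genes were 158.4 to 170.3 in mild and 159.4 to 166.2 in severe libraries. Those of 5 secondary wall xylem genes were 110.1 to 118.6 in mild and 150.8 to 206.8 in severe libraries, and those of 3 Casparian strip genes 15.0 to 17.8 and 27.5 to 32.9. Markers of other tissue were low: kernel storage genes summed to 3.95 to 4.74 TPM in mild and 3.94 to 4.97 TPM in severe libraries, and shoot photosynthesis genes to 56.3 to 61.3 and 56.8 to 72.5 TPM, most of it pyruvate orthophosphate dikinase, which was not called. The other 3 tested shoot genes, pep1, Cab-m7 and CP24, were higher under severe stress at means of at most 5.82 CPM, and their part in the results was not tested. In bulk RNA, fewer cells of a type cannot be told apart from less RNA per cell.

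**Figure D1:**
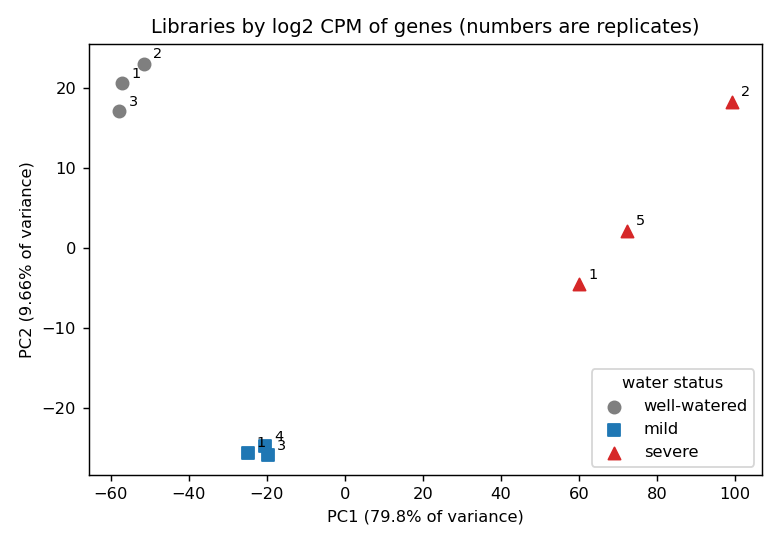
The 9 libraries on the first and second principal components of log2 CPM, labelled by replicate number. The severe libraries lie at 60.1 to 99.2 on the first axis with replicate 2 at the far end, and the 3 mild libraries lie close together.

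Many of the tested genes separated the stress levels. Of 22447 genes, 12090 were called (53.9%), 6309 higher under severe stress (28.1%) and 5781 lower (25.8%), and 13595 genes (60.6%) had 3 severe libraries that did not overlap the 3 mild ones. With library size in place of TMM scaling the split moved to 7563 higher and 4474 lower. Most changes were small, with a median absolute log2 FC of 0.28, but the large ones went upward: 1894 called genes rose and 230 fell by log2 FC 1 or more, 625 rose and 44 fell by 2 or more, and 268 rose and 12 fell by 3 or more. The direction also went with abundance. Among 8457 genes of 1 to 10 CPM in the higher group 2585 rose and 1035 fell, whereas among 2289 genes of at least 100 CPM 445 rose and 1230 fell. Against the well-watered libraries, 2280 genes (10.2%) were called under mild and 13215 (58.9%) under severe stress. These comparisons share libraries with each other and with the one described here.

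**Figure D2:**
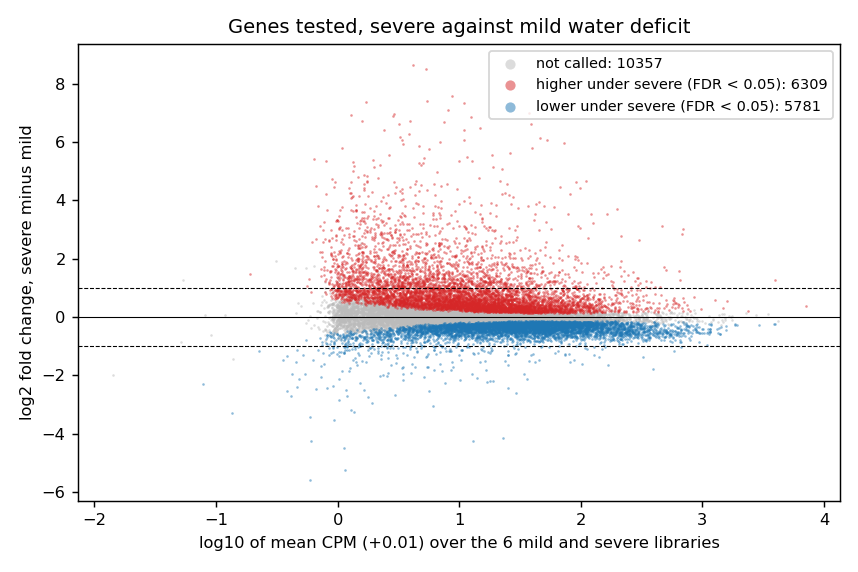
Log2 fold change (severe minus mild) of each tested gene against the log10 of its mean CPM over the 6 stress libraries. Red points are the 6309 genes higher and blue points the 5781 genes lower under severe stress, and points beyond the dashed lines changed at least 2-fold. The largest rises are among genes of low and middle abundance.

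Several of the genes with the largest rises were nearly silent under mild stress. The dehydrin gene dhn1 (also RAB17, GRMZM2G079440, chromosome 6, 137332062 to 137333893 in B73 RefGen_v3), whose protein accumulates in drying tissue, was at 0.254, 0.453 and 0.982 CPM in the mild and 5.47, 204 and 11.5 CPM in the severe libraries (log2 FC 7.01 ± 1.46, FDR = 0.00195). All severe libraries were above all mild ones, but they differed greatly from each other and replicate 2 carried most of the mean. The colorless2 gene c2 (GRMZM2G422750, chromosome 4, 192758391 to 192761788), which encodes the chalcone synthase that opens flavonoid synthesis, rose from 0, 0.302 and 0.344 CPM to 10.4, 46.3 and 18.1 CPM and had no reads in the well-watered libraries. The germin-like protein gene GLP2 (GRMZM2G122018, chromosome 1, 263005141 to 263006268) was at 0.686, 1.69 and 1.79 CPM in mild and 21.5, 159 and 51.5 CPM in severe libraries (log2 FC 5.81 ± 0.73, FDR = 7.25e-05). Severe replicate 2 was again the highest library for both.

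The type 2C protein phosphatase gene PP2C13 (GRMZM2G159811, chromosome 10, 101377174 to 101382475) stood at 0.0254, 0.181 and 0.393 CPM under mild and 8.09, 15.9 and 9.34 CPM under severe stress. The heat shock factor binding protein gene hsbp1 (GRMZM2G085924) rose from 5.69, 9.75 and 9.64 CPM to 62.1, 469 and 103 CPM, and its well-watered mean of 16.5 CPM was above the mild one. Enzymes of different pathways followed. A chitinase gene (chn1, GRMZM2G453805) rose by log2 FC 5.55 ± 0.57 (FDR = 2.40e-05), the terpene synthase gene TPS8 by 4.58 ± 0.64 (FDR = 0.000153) and the malate synthase gene mas1 (LIP in the tables), an enzyme of the glyoxylate cycle, by 4.25 ± 0.68 (FDR = 0.000379). The severe libraries spread less in glutamine synthetase gln2 (9.3, 7.94 and 9.5 CPM against 136, 248 and 185 CPM), in a reticulon gene whose family shapes the endoplasmic reticulum (6.6, 8.91 and 9.52 CPM against 132, 196 and 136 CPM) and in the beta-expansin gene expB6 (1.17, 1.75 and 1.1 CPM against 24.1, 22.9 and 21.3 CPM). Most reads of c2, mas1 and gln2 were not unique to 1 transcript, and unique reads alone gave log2 FC 8.58, 3.83 and 3.38. The gene named AR3 rose by log2 FC 7.10 ± 0.71 from 0.127, 0.121 and 0.0982 CPM to 6.94, 30.8 and 10.6 CPM. Another 34 genes with neither name nor description in the sources changed at least as much as the last of these 12, among them GRMZM2G067600 at 0, 0 and 0.0736 CPM in mild and 6.86, 15.8 and 9.42 CPM in severe libraries and GRMZM2G019373 at 0.0762, 0.0906 and 0.0982 CPM and 2.69, 41.3 and 8 CPM. At the limit of detection, 10 genes had at most 3 reads in each mild library and at least 1 CPM in each severe library, of which only TIFY2 of the jasmonate repressor family had a name, and no gene showed the opposite.

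The largest falls were smaller than the largest rises and included an abscisic acid receptor, cytoskeletal genes and the glutathione transferases gst7 and gst31. The receptor gene PYL7 (GRMZM2G144224, chromosome 1, 46236786 to 46238037) was at 20.8, 14 and 14.8 CPM under mild and 3.76, 3.87 and 3.44 CPM under severe stress (log2 FC -2.16 ± 0.14, FDR = 1.53e-06), from 65.4, 65.8 and 58.9 CPM in well-watered roots. One of the Actin-7 genes (GRMZM2G082484, chromosome 1, 224508802 to 224512075) fell from 266, 256 and 247 CPM to 108, 56.6 and 78.8 CPM, and a gene for profilin (GRMZM2G140455), which binds actin monomers, from 189, 200.1 and 163 CPM to 95.4, 56.5 and 69.3 CPM. For both, severe replicate 2 was the lowest of all libraries. The phosphate transporter gene pht9 fell (log2 FC -1.66 ± 0.19, FDR = 4.24e-05), the sucrose-phosphate phosphatase gene SPP2 (log2 FC -1.22 ± 0.09, FDR = 2.30e-06) and the root cap protein gene RCP1 (log2 FC -1.06 ± 0.14, FDR = 0.0001). The defensin gene DEF1 (-1.03) and the genes named al1 (-1.54), GR2b (-1.04) and gar1 (-1.04) completed the 12 by log2 FC. Another 66 unannotated genes fell at least as far, led by GRMZM2G135165 (24.5, 28 and 22.2 CPM against 1.92, 0.973 and 0.983 CPM) and GRMZM2G117956 (51.3, 37.9 and 40.5 CPM against 3.71, 1.6 and 1.99 CPM).

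The genes with the largest differences in mean CPM were abundant ones. The largest rise in mean CPM was that of lipoxygenase lox1, whose enzymes oxygenate polyunsaturated fatty acids, with 2281, 2487 and 2195 CPM in mild and 4319, 6671 and 5739.7 CPM in severe libraries. The beta-glucosidase gene glu1, which releases defence compounds from their glucosides, was the most abundant gene of its list at 6056, 6354 and 6101 CPM and 7766, 8373 and 7819 CPM. The others were AGA1, an alkaline alpha-galactosidase that acts on raffinose-type sugars (153 ± 28 to 1225 ± 383 CPM, SD, n = 3), the BURP-domain gene BURP3 (166 ± 14.5 to 1200.0 ± 753 CPM), phytase2 (95.8 ± 5.07 to 829 ± 373 CPM) and aba1, which encodes an abscisic acid, stress and ripening protein (320.3 ± 18 to 954 ± 107 CPM). For all 6 the severe libraries lay above the mild ones without overlap, as for 7072 of the 22447 tested genes. The 6 had been picked for the size of their rise in these libraries. The largest falls were those of the unannotated AC187262.4_FG007 (1456 ± 147 to 742 ± 178 CPM), GRMZM2G015295 (4233 ± 160.4 to 3569 ± 428 CPM) and GRMZM2G308463 (1211 ± 293 to 675 ± 146 CPM), the alpha-tubulin gene TUBA1 (4290.4 ± 184 to 3636 ± 296 CPM) and the glyceraldehyde-3-phosphate dehydrogenase genes gpc4 (1670.5 ± 40.4 to 1103 ± 209 CPM) and GAPC3 (1678 ± 50.5 to 1119 ± 208 CPM). Unique reads were 2.49% of the reads of gpc4 and 6.69% of those of GAPC3, so their counts may share reads. In unique reads gpc4 (log2 FC -0.23, FDR = 0.113) and GRMZM2G015295 (-0.23, FDR = 0.0709) were not called, while GAPC3 was (-0.59, FDR = 0.00048).

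Genes of the abscisic acid pathway differed in both directions, by role. Of 43 tested members of 48, 26 rose and 6 fell (28.1% and 25.8% over all genes). Their median log2 FC was 0.36 against 0.01 over all genes. For synthesis, vp14 (GRMZM2G014392, chromosome 1, 250953388 to 250956063), the dioxygenase that cleaves carotenoids towards abscisic acid, rose from 3.84, 4.56 and 3.9 CPM to 13.3, 22.9 and 16.1 CPM (log2 FC 2.09 ± 0.20, FDR = 1.48e-05). Of 8 tested receptor genes named PYL 4 fell, 1 rose (PYL11) and 3 were not called. PYL5 was at 7.21, 4.23 and 4.81 CPM under mild and 1.28, 1.23 and 1.72 CPM under severe stress after 28.7, 25 and 20.8 CPM in well-watered roots, and PYL2 fell (log2 FC -0.54 ± 0.10, FDR = 0.000855). For PYL7, PYL5 and PYL2 the mild libraries lay between the well-watered and the severe ones without overlap. Of 22 tested genes named for type 2C phosphatases, whose family includes the enzymes that block the pathway, 17 rose and 1 fell. PP2C11 was at 0.965, 0.834 and 1.09 CPM in well-watered, 3.79, 4.65 and 4.79 CPM in mild and 33.6, 36.5 and 34.3 CPM in severe libraries (log2 FC 2.98 ± 0.10, FDR = 3.86e-08). PP2C16 rose by 2.20 ± 0.24 (FDR = 3.42e-05), while PP2C30 fell (log2 FC -0.27 ± 0.11, FDR = 0.0489), a call that was lost without severe replicate 2 (FDR = 0.108). The kinase gene SnRK2.7, the most abundant member by TPM, fell (log2 FC -0.21 ± 0.08, FDR = 0.0424, and 0.104 without severe replicate 2).

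Late embryogenesis abundant (LEA) proteins and dehydrins, hydrophilic proteins that protect drying cells, were called in 4 of 5 tested members, all higher. The share called higher over all genes was 28.1%. Besides dhn1, the Em-type gene EMB5 rose from 0.965, 0.755 and 1.42 CPM to 9.52, 16 and 12 CPM (log2 FC 3.56 ± 0.27, FDR = 3.78e-06) and MGL3 from 16.9, 21.3 and 18.9 CPM to 41.8, 37.7 and 41.2 CPM. The most abundant member, dehydrin3, was already at 1318, 1247 and 1385 CPM under mild stress and rose to 1647, 1566 and 1623 CPM, above 907, 939 and 956 CPM in well-watered roots. All severe libraries lay above all mild ones for these 4 genes, as for 7072 of the 22447 tested genes.

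**Figure D3:**
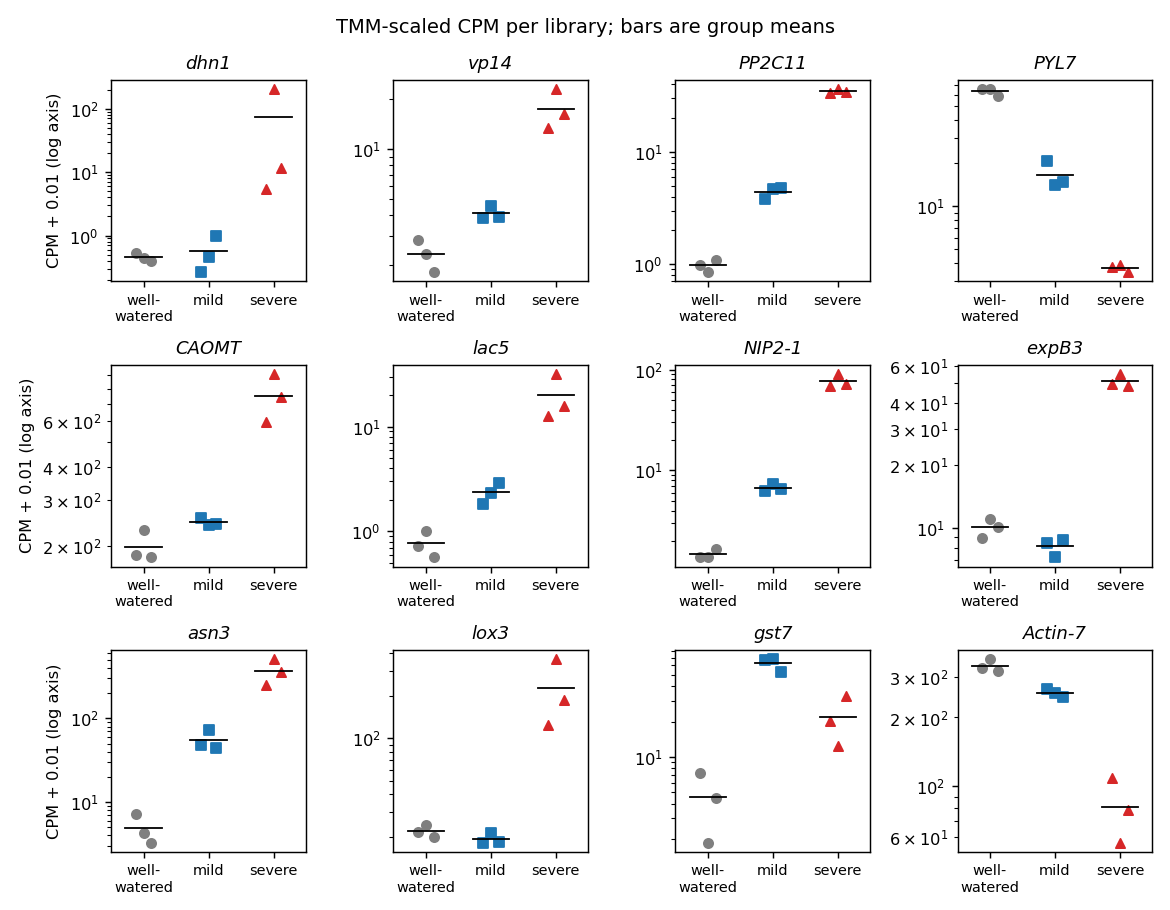
TMM-scaled CPM (plus 0.01, log axes that differ between panels) of 12 genes in each of the 9 libraries, with horizontal bars at group means. dhn1 spans 5.47 to 204 CPM across severe libraries, PP2C11 33.6 to 36.5 CPM, and gst7 is highest in the mild libraries.

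In the solute list 5 of 8 members rose and 1 fell (28.1% and 25.8% over all genes). SPP2 fell from 21, 19.2 and 19.4 CPM to 7.88, 8.11 and 9.64 CPM, whereas its relative spp1 rose from 61.9, 65.8 and 63.7 CPM to 88, 84.6 and 87 CPM. The aldehyde dehydrogenase genes of betaine and polyamine metabolism rose modestly, ALDH10A5 by log2 FC 0.41 ± 0.06 (FDR = 0.000198) and the 2 gene models named AMADH1A by 0.38 and 0.50, while the galactinol synthase gene gols2, named after its values were seen, went from a mean of 0.191 to 3.37 CPM and the most abundant, ALDH10A9, differed by 0.10 ± 0.05 and was not called. Of 6 genes that cleave sucrose 4 rose and none fell (28.1% and 25.8% over all genes). However, 2 rose with unique reads and 1 with the 6 mild and severe libraries alone. The sucrose synthase sus2 went from 3.3, 3.41 and 4.49 CPM to 16, 57.9 and 22.3 CPM (log2 FC 3.10 ± 0.42, FDR = 0.000131), far more than sh1 (0.33 ± 0.12, not called without severe replicate 2, FDR = 0.1), ss2 (0.19 ± 0.06) or the cell wall invertase incw1 (0.22 ± 0.08). The severe and mild libraries of sh1 overlapped, and its transcripts were called in both directions (log2 FC from -0.60 to 0.91). In unique reads ss2 was at 0.02 (FDR = 0.897) and incw1 at 0.20 (FDR = 0.0592). The vacuolar invertase ivr2, the most abundant member, was at 1265, 1333 and 1137 CPM and 1227, 1093 and 1244 CPM with overlapping libraries.

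Aquaporins, channels for water and small solutes, rose in 14 and fell in 4 of 22 tested members (28.1% and 25.8% over all genes). With library size in place of TMM scaling 16 rose and 1 fell. NIP2-1, the maize homologue of the silicon channel Lsi1 of rice, showed the largest rise, from 6.25, 7.37 and 6.53 CPM to 68.8, 90.6 and 71.7 CPM (log2 FC 3.52 ± 0.12, FDR = 3.86e-08). The closely named NIP2-2 fell from 82.3, 93.4 and 78.6 CPM to 60.8, 36.1 and 45 CPM. Tonoplast and plasma membrane members that rose included TIP2-3 (1.45 ± 0.09), TIP1-2 (1.09 ± 0.12) and PIP1-5 (1.25 ± 0.14). PIP2-1 (-0.25 ± 0.08), PIP2-3 (-0.32 ± 0.11) and SIP2-1 (-0.23 ± 0.08, FDR without severe replicate 2 = 0.0891) fell with TMM scaling but were not called with library size alone, and the most abundant member, PIP1-1, overlapped at 2180.4, 2378 and 2008 CPM and 2415, 2366 and 2461 CPM.

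Most wall loosening genes rose. Of 22 tested members 15 rose and 4 fell (28.1% and 25.8% over all genes), with a median log2 FC of 0.62. Expansins, which loosen walls without hydrolysis, led: expB3 rose from 8.46, 7.19 and 8.71 CPM to 49, 54.9 and 48.2 CPM (log2 FC 2.64 ± 0.10, FDR = 7.25e-08), expB7 from 1.22, 1.24 and 0.589 CPM to 7.58, 6.22 and 7.95 CPM and expa1 from 79.5, 94.8 and 68.1 CPM to 266, 248 and 310.0 CPM. The severe libraries agreed closely for these genes and replicate 2 did not stand out. The members that fell did so weakly, namely the expansin expA4 (-0.50 ± 0.11) and the cellulases Cel16 (-0.51 ± 0.15), Cel3 (-0.29 ± 0.06) and Cel12Chr1 (-0.25 ± 0.07). The exoglucanase exg1, the most abundant member, rose from 1068, 994 and 965 CPM to 1469, 1513 and 1557 CPM. Its transcripts were called in both directions (log2 FC from -0.47 to 1.18).

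Of 21 tested cellulose and wall synthesis genes 7 rose and 5 fell, which is close to the shares over all genes (28.1% and 25.8%), so the list as a whole did not stand apart and its members are given singly. The secondary wall genes rose, with cesa11 (GRMZM2G037413) at 34.2, 39.9 and 38.3 CPM and 83.6, 109 and 65 CPM, CesA12 at 34.4, 41.6 and 33.8 CPM and 57.6, 72.6 and 50.3 CPM, cesa10 by log2 FC 0.41 ± 0.08 (FDR = 0.00125) and the COBRA-like gene bk2 of brittle stalk at 5.259, 4.89 and 4.56 CPM and 13.1, 30.1 and 15.9 CPM. A second gene model named cesa11 (GRMZM2G055795) was not called. CesA-7 (0.94 ± 0.08) and CesA13 (0.96 ± 0.13) rose, while CesA-6 (-0.30 ± 0.07), CesA-5 (-0.31 ± 0.07), the cellulose synthase-like gene CSLD1 (-0.51 ± 0.09) and Bk2L4 (-0.28 ± 0.06) were among those that fell. The most abundant, CesA-8, was at 1567, 1535 and 1574 CPM and 1564, 1220.0 and 1333 CPM and was not called.

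The pathway to lignin, the phenolic polymer of secondary walls, moved in 1 direction. Of 16 tested members 13 rose and none fell (28.1% and 25.8% over all genes), and the median log2 FC was 0.93. The cinnamoyl-CoA reductase gene CCR rose from 10.1, 10.7 and 8.91 CPM to 62.3, 135 and 84 CPM (log2 FC 3.25 ± 0.35, FDR = 2.92e-05) and its relative ccr2 from 0.457, 0.211 and 0.245 CPM to 1.82, 14.2 and 3.5 CPM. The laccases, which oxidise lignin monomers in the wall, rose from 1.8, 2.33 and 2.9 CPM to 12.7, 31.7 and 15.6 CPM (lac5) and from 1.96, 3.14 and 2.99 CPM to 15, 47.5 and 22.3 CPM (LAC1). The most abundant member was the caffeic acid O-methyltransferase gene CAOMT, with 254, 240.3 and 243 CPM and 598, 910.0 and 744 CPM. Without severe replicate 2 the count stayed at 13. The secondary wall xylem markers given above and ZmCASP1 of the Casparian strip (6, 5.34 and 7.09 CPM against 16.9, 16.1 and 17.5 CPM) moved the same way, and their part in these results was not tested. Of the Casparian strip list 1 of 3 members was called, and ZmCASPL5A1 and ZmCASPL2D1 were not.

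**Figure D4:**
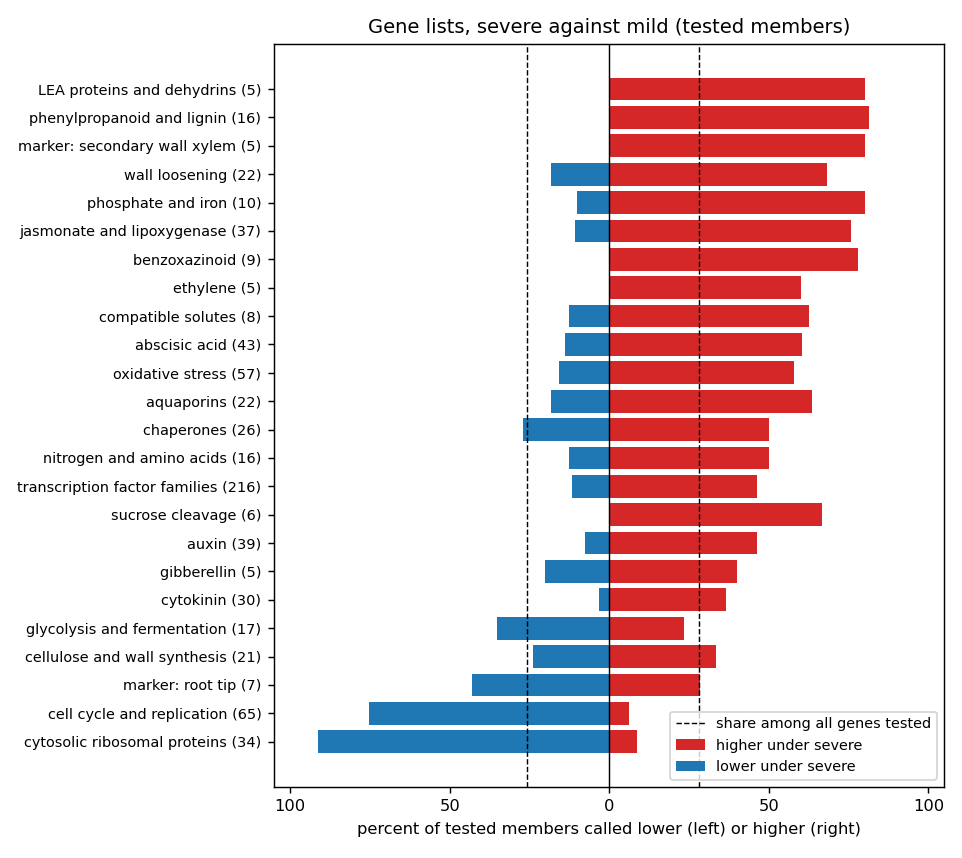
Share of tested members called higher (right, red) or lower (left, blue) under severe than mild stress in each list with at least 5 tested members, given in brackets, ordered by median log2 FC. Dashed lines mark the shares among all genes, 28.1% higher and 25.8% lower; cytosolic ribosomal and cell cycle genes extend furthest to the left.

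Most genes of cell division fell, by small amounts. Of 65 tested cell cycle and replication genes 49 fell and 4 rose (25.8% and 28.1% over all genes). The median log2 FC was -0.41 (-0.34 without severe replicate 2). PCNA, the sliding clamp of DNA polymerase, was at 75.7, 71.1 and 74.1 CPM under mild and 49, 43 and 50.6 CPM under severe stress, against 75.6, 80.1 and 80.5 CPM in well-watered roots. The cyclin gene cyc3 fell from 22.9, 22.7 and 24 CPM to 16.7, 13.7 and 14.2 CPM, the kinesin gene kin11 from 53.2, 55.4 and 57.4 CPM to 36.3, 35.2 and 35.6 CPM and the histone gene H3C4 (log2 FC -0.64 ± 0.10, FDR = 0.000279). The most abundant member, the histone H2A gene his2a1, fell (log2 FC -0.39 ± 0.08). Mild and well-watered libraries overlapped for PCNA, H3C4 and kin11. The 4 members that rose were cycD1 (0.83 ± 0.15), the ribonucleotide reductase subunit RNRS2 (0.75 ± 0.10), Cyclin-SDS (0.57 ± 0.14) and KIN1 (0.21 ± 0.06). With unique reads RNRS2 alone of these was called, cycD1 had FDR = 0.179 and KIN1 a log2 FC of 0.05 (FDR = 0.874), and Cyclin-SDS had no unique reads. Among root tip markers SCR, a transcription factor of the endodermis and quiescent centre, fell (log2 FC -0.31 ± 0.08), the auxin exporter gene PIN1a was not called (-0.10 ± 0.08), and rtcs (2.41, 3.261 and 2.55 CPM against 8.52, 8.57 and 8.44 CPM) and TD1 (2.87, 3.71 and 2.92 CPM against 5.53, 13.6 and 7.57 CPM) rose. The root hair gene rth3 fell from 63.8, 58.9 and 59.5 CPM to 45.3, 39.9 and 45.1 CPM.

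Every one of the 34 tested genes for cytosolic ribosomal proteins was called, 31 lower and 3 higher (25.8% and 28.1% over all genes). The median log2 FC was -0.54 (-0.45 without severe replicate 2, when 29 were called lower and 2 higher). The gene for the stalk protein RP-P0, the most abundant, fell from 1384, 1281 and 1284 CPM to 973, 833 and 972 CPM, rps24 from 232, 214 and 229 CPM to 139, 122.9 and 128 CPM, and the P2 genes arpp2a-2 and RPP2A (log2 FC -0.80 ± 0.08 and -0.75 ± 0.09). RPL27A had the largest fitted fall (-1.53 ± 0.51), but its libraries ranged over 9.35, 18.4 and 38.6 CPM and 12.6, 3.41 and 6.94 CPM, overlapped, and lost the call without severe replicate 2 (FDR = 0.0512). The 3 members that rose, rpl19 (0.45 ± 0.10), rpp2b (0.38 ± 0.09) and rpl29 (0.29 ± 0.10), were not called with unique reads (FDR = 0.206, 0.297 and 0.0787). Ribosomal protein and histone genes have near-identical copies between which reads may be divided, so single members are less certain than the list.

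Chaperone genes were called in both directions. Of 26 tested members 13 rose and 7 fell (28.1% and 25.8% over all genes), the falls near the share over all genes. The small heat shock protein gene HSP18 rose from 0.356, 0.211 and 0.196 CPM to 8.43, 10.6 and 9.48 CPM (log2 FC 5.20 ± 0.21, FDR = 9.03e-08), hsp82, of the HSP90 family, from 0.838, 0.664 and 0.294 CPM to 2.69, 8.13 and 5.11 CPM, the heat shock factor gene Hsf05 from 6.3, 6.1 and 5.64 CPM to 19.3, 31.7 and 21.8 CPM and Hsp70 (GRMZM2G310431) from 52.5, 47.8 and 44.9 CPM to 143, 205 and 180.1 CPM. Mitochondrial chaperonin genes fell: CPN60II went from 633, 661 and 691 CPM to 448, 368 and 404 CPM, and the 2 gene models named CPN60I fell (log2 FC -0.84 ± 0.09 and -0.85 ± 0.09). BIPE3, an HSP70 of the endoplasmic reticulum, fell (log2 FC -0.55 ± 0.09). The abundant hsp70-4 fell (log2 FC -0.27 ± 0.07) in total reads but had hardly any unique reads, which gave the opposite sign (0.86).

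**Figure D5:**
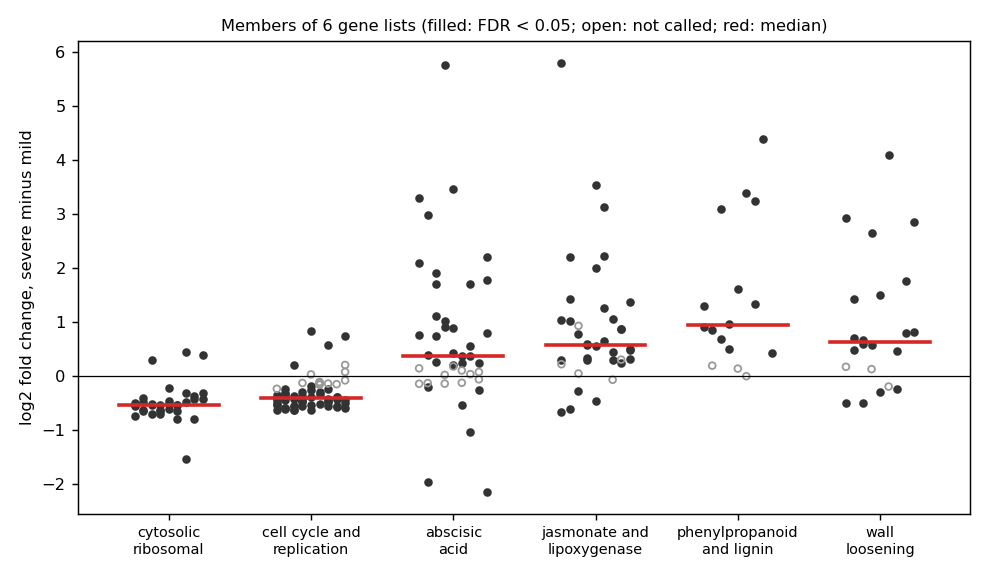
Log2 fold change (severe minus mild) of every tested member of 6 gene lists. Filled points passed FDR < 0.05, open points did not, and red lines are list medians, from -0.54 for cytosolic ribosomal proteins to 0.93 for phenylpropanoid and lignin genes.

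Jasmonate and lipoxygenase genes rose in 28 and fell in 4 of 37 tested members (28.1% and 25.8% over all genes). Their median log2 FC was 0.58, and 0.41 without severe replicate 2. The lipoxygenase gene lox3 (GRMZM2G109130, chromosome 1, 264266381 to 264271190) was at 18.3, 21.3 and 18.5 CPM under mild and 124, 361 and 187 CPM under severe stress (log2 FC 3.54 ± 0.32, FDR = 1.04e-05), and lox6 at 1.85, 2.08 and 2.23 CPM and 11.8, 28.8 and 12.9 CPM. Allene oxide synthase aos2 and lox6 were lower under mild stress than in well-watered roots (7.66, 10.2 and 8.08 CPM for aos2), and aos2 rose again to 4.95, 11.3 and 6.39 CPM under severe from 2.18, 3.29 and 3.04 CPM under mild stress. The jasmonate repressor gene TIFY28 varied widely within groups (0.762, 0.906 and 2.43 CPM against 5.29, 7.88 and 3.41 CPM) and was not called without severe replicate 2 (FDR = 0.0867). The oxophytodienoate reductase genes opr1 and opr3 went the other way. opr1 was at 1.09, 0.286 and 0.603 CPM in well-watered, 10.01, 6.64 and 9.37 CPM in mild and 5.79, 6.22 and 4.94 CPM in severe libraries, and opr3 at 14, 10.2 and 11.8 CPM, 34.9, 33.3 and 33 CPM and 25.1, 22 and 26.5 CPM, so that both were highest under mild stress. TIFY23 fell (log2 FC -0.29 ± 0.05).

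The same order, highest under mild stress, was found in several glutathione transferase genes, whose enzymes conjugate reactive compounds to glutathione. gst7 (GRMZM2G028556, chromosome 3, 149477875 to 149478958) was at 7.35, 1.86 and 4.44 CPM in well-watered, 67.1, 67.8 and 52.6 CPM in mild and 20.4, 12.4 and 32.8 CPM in severe libraries (log2 FC -1.53 ± 0.35, FDR = 0.00365). gst31 was at 33.5, 10.4 and 24.7 CPM, 165, 160.2 and 134 CPM and 67.6, 50.6 and 94.5 CPM, and GST4 at 444, 316 and 398 CPM, 808, 731 and 719 CPM and 486, 321 and 504 CPM. Other members rose: gst28 reached 27.1, 51 and 32.6 CPM from 11.6, 9.93 and 9.91 CPM, gst19 2.56, 9.99 and 6.23 CPM from 0.356, 0.513 and 0.294 CPM and gst9 2.52, 11.8 and 2.76 CPM from 0.508, 0.423 and 0.761 CPM. Further, gst30 rose by 1.73 ± 0.35 and GST38 fell (log2 FC -0.89 ± 0.12). The most abundant, gst1, rose from 2299, 2250.3 and 2133 CPM to 2488, 2575 and 2581 CPM. In the whole oxidative stress list 33 of 57 tested genes rose and 9 fell (28.1% and 25.8% over all genes).

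Benzoxazinoids are defence compounds of maize seedlings, made from indole by successive cytochrome P450 steps. Of 9 tested genes 7 rose and none fell (28.1% and 25.8% over all genes). The P450 genes of consecutive steps rose together, cyp71c2 (Bx3) from 2.44, 1.63 and 1.77 CPM to 18.7, 46.8 and 18.7 CPM, BX4 from 8.03, 5.37 and 5.06 CPM to 30.1, 53 and 29.6 CPM and CYP71C3 (Bx5) from 14.8, 10.6 and 9.89 CPM to 31, 52.7 and 31 CPM. The 3 lie close together on chromosome 4, and severe replicates 1 and 5 agreed closely for each while replicate 2 was higher. The dioxygenase gene bx6 rose by 0.66 ± 0.15.

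Auxin genes rose in 18 and fell in 3 of 39 tested members (28.1% and 25.8% over all genes). The share called in either direction was about that among all genes (53.9%). Among members of at least 5 CPM, Aux/IAA repressor genes rose most: AUX10 went from 4.85, 5.8 and 5.82 CPM to 13.9, 28.3 and 16.5 CPM, AUX27 from 4.45, 3.68 and 4.1 CPM to 10.3, 19.9 and 12.7 CPM, AUX15 by log2 FC 1.48 ± 0.13 (FDR = 7.77e-06) and AUX3 by 0.98 ± 0.07 (FDR = 1.75e-06). The most abundant, AUX14, did not separate the groups (403, 429 and 414 CPM against 430.3, 423 and 418 CPM). The exporter genes PIN10a (-0.41 ± 0.10) and PIN1d (-0.26 ± 0.08) and the response factor ARF3 (-0.21 ± 0.06) fell slightly, and PIN1d had the opposite sign in its few unique reads (0.86). Of 30 tested cytokinin genes 11 rose and 1 fell (28.1% and 25.8% over all genes), a smaller share called than among all genes (53.9%). Those that rose included the receptor kinases HK1b1 (14.8, 14.1 and 17.8 CPM against 30.2, 39.8 and 29.6 CPM) and HK1b2 (0.93 ± 0.23), the cis-zeatin glucosyltransferase ciszog1 (1.11 ± 0.17) and the phosphotransfer gene HP1 (0.73 ± 0.09, but -1.98 in its few unique reads). CKX4b, a cytokinin oxidase gene named after its values were seen, fell (log2 FC -1.31) from a low level. The most abundant member, 1 of the gene models named crr5 (GRMZM6G980248), a response regulator, was not called.

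Few gibberellin and ethylene genes had a name. The gibberellin oxidase gene Dwarf1 fell (log2 FC -0.53 ± 0.12) and the DELLA gene D8, the most abundant of 5 tested members, overlapped between groups, while an1 (from a mean of 0.212 to 2.62 CPM) and CYP88A1 (1.02 to 2.34 CPM) of gibberellin synthesis, named after their values were seen, rose. Of 5 ethylene genes 3 rose and none fell (28.1% and 25.8% over all genes). Those that rose were ACO, ACS6 and the receptor ERS14 (0.47 ± 0.07), and without severe replicate 2 the count was 2 of 5. The most abundant receptor etr2 was at 41, 43.1 and 40.03 CPM in well-watered, 27, 24.9 and 25.8 CPM in mild and 28.2, 29.8 and 26.6 CPM in severe libraries and was not called between the stress levels.

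Nitrogen metabolism held genes that responded in steps. Asparagine synthetase asn3 (GRMZM2G053669, chromosome 1, 45118780 to 45122813), which makes a nitrogen-rich transport amide, was at 7.17, 4.22 and 3.28 CPM in well-watered, 47.9, 73.1 and 44.2 CPM in mild and 249, 509 and 359.8 CPM in severe libraries (log2 FC 2.76 ± 0.29, FDR = 2.51e-05). asn2 followed at 0.241, 0.381 and 0.0965 CPM, 2.06, 2.33 and 2.43 CPM and 7.56, 9.09 and 12.9 CPM, and no groups overlapped in either gene. Their relative asn1 (AS in the tables) fell (log2 FC -0.27 ± 0.07). Glutamine synthetase genes differed from each other: besides gln2, a gene named GLN2 (GRMZM2G098290) rose from 5.31, 5.53 and 6.01 CPM to 16.6, 25.2 and 18.2 CPM, GLN6 fell from 287, 298 and 281 CPM to 226, 153 and 178 CPM, and the most abundant, gln1-3, was at 883, 905 and 828 CPM and 771, 836 and 932 CPM. Across the list 8 of 16 tested members rose and 2 fell (28.1% and 25.8% over all genes).

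Phosphate and iron genes rose in 8 of 10 tested members and fell in 1 (28.1% and 25.8% over all genes). The iron store gene fer1 (ferritin) rose from 237, 219 and 228 CPM to 348, 371 and 376 CPM and the yellow stripe-like metal transporter ysl14A from 22.5, 19.5 and 20.5 CPM to 39.5, 47.2 and 44.7 CPM. The phosphate transporters pht1 (0.69 ± 0.09) and pht2 (0.85 ± 0.22) rose, opposite to pht9 (36.5, 44 and 34.1 CPM against 12.2, 9.07 and 15.2 CPM). In glycolysis and fermentation 4 of 17 genes rose and 6 fell, near the shares over all genes (28.1% and 25.8%), and with library size in place of TMM scaling 6 rose and 5 fell. Alcohol dehydrogenase adh1, the enzyme of ethanol fermentation, was at 308, 289 and 291 CPM in well-watered, 189, 173 and 203 CPM in mild and 362, 447 and 455 CPM in severe libraries, lowest under mild stress. adh2 (0.34 ± 0.10), pyruvate decarboxylase PDC (0.31 ± 0.06) and one enolase (0.21 ± 0.06) rose, while the aldolase genes aldolase2 (-0.32 ± 0.08) and ald1 (-0.31 ± 0.10), the dehydrogenases gpc4 and GAPC3 and the most abundant member eno1 (-0.26 ± 0.10, FDR without severe replicate 2 = 0.054) fell. As given above, gpc4 was not called with unique reads.

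Among 216 tested genes named for a transcription factor family 100 rose and 25 fell (28.1% and 25.8% over all genes). bZIP9 rose from 0.762, 1.15 and 1.55 CPM to 6.34, 11.9 and 7.54 CPM (log2 FC 2.90 ± 0.29, FDR = 1.91e-05), NAC1 from 6.96, 8.24 and 8.29 CPM to 39, 66.7 and 51.3 CPM, bZIP113 from 0.737, 0.966 and 1.13 CPM to 2.78, 11.2 and 3.85 CPM and bHLH150 from 0.762, 0.996 and 0.908 CPM to 3.86, 7.8 and 4.07 CPM. The largest fall among members of at least 5 CPM was that of another basic leucine zipper gene, bZip112, with 14.9, 17.9 and 14.3 CPM in well-watered, 7.04, 6.4 and 5.77 CPM in mild and 1.35, 2.63 and 0.983 CPM in severe libraries. MYB34 (-0.77 ± 0.11), Myb20 (-0.69 ± 0.12) and bHLH88 (-0.58 ± 0.09) also fell, and the most abundant, EREB109, was not called. Of 3 tested genes for long-chain lipids gl4a rose, from a mean of 0.142 to 1.99 CPM, the elongase gene fae1 (-0.48 ± 0.10) and the ketoacyl reductase gene gl8b (-0.24 ± 0.08) fell, and gl8b was not called without severe replicate 2 (FDR = 0.0624).

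Per transcript, 11290 of 46599 were called (24.2%), 6438 higher (13.8%) and 4852 lower (10.4%), and the 3 severe libraries did not overlap the mild ones for 18653 transcripts (40%). With library size in place of TMM scaling there were 7638 higher and 3728 lower. Of the called genes 8797 had a called transcript and 3293 had none, and 1163 genes with a called transcript were not called as genes. Among 9863 genes with at least 2 tested transcripts, 66 had transcripts called in opposite directions, 31 of them at 5 CPM per transcript. Pyruvate decarboxylase PDC had the largest difference among those with a name. Its transcript T04 (185, 80.1 and 68.1 CPM against 272, 442 and 414 CPM) rose by log2 FC 1.76 ± 0.35 (FDR = 0.00629) and T01 (69.2, 85.1 and 77.4 CPM against 50.8, 40.3 and 44.4 CPM) fell (log2 FC -0.77 ± 0.22, FDR = 0.0317). In the unannotated GRMZM2G450937, T07 rose by 0.91 ± 0.25 and T04 fell (log2 FC -1.48 ± 0.15), in GRMZM2G101282 T01 rose by 1.35 ± 0.25 and T03 fell (log2 FC -0.92 ± 0.25), and in GRMZM2G051270 T01 rose by 1.45 ± 0.46 and T02 fell (log2 FC -1.30 ± 0.35). The severe and mild libraries of GRMZM2G051270 T01 overlapped (FDR = 0.0481). Without severe replicate 2 the calls of PDC T01 (FDR = 0.106), GRMZM2G450937 T07 (FDR = 0.0801) and GRMZM2G051270 T01 (FDR = 0.184) were lost. Almost all reads of these transcripts were shared with other transcripts, so the division of reads among them rests on the authors' counting.

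A list of 223 miRNA target transcripts, found by degradome sequencing of cleaved RNA ends, was looked up in the transcript results. Of 194 tested, 29 were higher and 26 lower under severe than mild stress, with a median log2 FC of -0.01 against 0.01 over all transcripts. These shares are near those over all transcripts (13.8% higher and 10.4% lower), so the listed targets did not stand apart as a group. The mature sequences of 6 miRNAs whose listed targets were called are shown, from the study's table of detected miRNAs, because they name the pairs described next. Capitals mark the seed, bases 2 to 8 from the 5′ end.
miR169i-k-3p: gGCAGUCUccuuggcuag
miR394a,b-5p: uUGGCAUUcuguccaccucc
miR408a,b-3p: cUGCACUGccucuucccuggc
miR408b-5p: cAGGGACGaggcagagcaugg
miR528a,b-5p: uGGAAGGGgcaugcagaggag
miR827-3p: uUAGAUGAccaucagcaaaca

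No seed was shared among these 6. Among listed targets of at least 5 CPM the largest rise was that of PP2C16 (transcript T01, paired with miR169i-k-3p), which went from 1.35, 1.89 and 1.77 CPM to 5.7, 10.7 and 6.36 CPM (log2 FC 2.19 ± 0.26, FDR = 0.000594). Of 13 tested targets listed for this miRNA 3 rose, 1 fell and 9 were not called. A trehalase transcript paired with the same miRNA (GRMZM2G162690_T03) rose by 1.46 ± 0.17 (FDR = 0.000557), the NAC domain gene NAC40 (miR164h-5p) by 1.75 ± 0.30 (FDR = 0.00282) and the unannotated GRMZM2G175406_T01 (miR827-3p) from 5.25, 5.96 and 6.19 CPM to 10.5, 26.5 and 14.9 CPM. Those that fell most were GRMZM2G066820_T02, paired with miR172a-d-3p (44.7, 35.3 and 38.5 CPM against 20.7, 15.9 and 17.3 CPM), the acidic ribosomal gene rpp1a (-0.93 ± 0.18) and the unannotated GRMZM2G345055_T03 (-0.81 ± 0.18) and GRMZM5G897976_T01 (-0.76 ± 0.07).

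The remaining pairs with a printed miRNA were named after their values were seen, beside shares over all transcripts of 13.8% higher and 10.4% lower. Some families without a printed sequence had more falls than rises. Of 14 tested miR172 targets 4 fell and 1 rose, and of 16 tested miR396 targets 3 fell and 1 rose. For miR394a,b-5p, 3 of 5 tested targets rose and none fell, among them the F-box genes GRMZM2G119650 (34.7, 33.2 and 36.3 CPM against 45.3, 51 and 47 CPM) and GRMZM2G064954 (0.41 ± 0.07). For miR408a,b-3p, 3 of 6 rose and 1 fell. The blue copper protein genes GRMZM2G122302 (42.8, 40.3 and 37.7 CPM against 66.1, 56.1 and 63 CPM) and GRMZM2G082940 (0.39 ± 0.06) rose and a chemocyanin gene (GRMZM2G352678) fell (log2 FC -0.48 ± 0.10). For miR408b-5p 1 of 3 rose, and for miR528a,b-5p 1 of 2 rose, an extensin-like gene (GRMZM2G070322) that went from 86.5, 78.8 and 83.6 CPM to 140.1, 125 and 153 CPM. Small RNA abundance itself was not analysed here.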

How the data were processed

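RNA-seq libraries of 9 pooled root tip samples were used. The authors trimmed reads to at least 36 nt and mapped them to B73 RefGen_v3 (Release 5b+) in CLC Genomics Workbench. The deposited tables hold whole-number counts per transcript (total and unique transcript reads, the unique share being 48.1 to 48.7%) and TPM as the authors' software gave them, and separate deposited CPM tables list 46599 transcripts, whose values equal total reads divided by the library sum. Total reads were summed by gene ID; genes with at least 1 CPM in at least 3 libraries were tested. TPM was summed per gene for marker levels only and entered no test.

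Counts were fitted with edgeR 4.0.16 (TMM, quasi-likelihood F-test, Benjamini-Hochberg) in R 4.3.3 over all 9 libraries, contrast severe minus mild, with no replicate block. The standard error is the log2 FC divided by the square root of F. DESeq2 1.42.0 was an alternative. The code was tested on simulated counts. Alternatives were other scalings, filters, reads, samples, thresholds, a replicate block and leaving out each library.

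Names came from the tables (462 gene IDs) and the RefSeq gene table (assembly Zm-B73-REFERENCE-NAM-5.0, 18844 IDs matched), 2800 in all; coordinates are those of the deposited tables. Named genes were, for genes of at least 10 CPM in the higher group without overlap, the 12 annotated ones with the largest log2 FC each way and 2 unannotated each way; the 6 with the largest change in mean CPM each way; in each list up to 4 called members each way of at least 5 CPM and the most abundant member by TPM; genes with transcripts called in opposite directions; and listed miRNA targets. The members and lists were chosen with earlier results of these data known. Nothing in the labels says that replicates came from separate experiments, so p-values measure the spread between pooled samples, and values near 0 are limited by counting error alone at 3 reads (0.0576 to 0.0898 CPM in the stress libraries). The series title gives the mild water potential differently from the sample labels, which were followed. Promoter and protein sequences were not used here.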

Additional observations from a re-analysis of the deposited data

How the results depend on the processing

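The number of called genes stayed between 10538 and 13032 under the other scalings, DESeq2, both other filters, the 6 libraries alone and each left-out library, against 12090; leaving out single libraries gave 10538 to 12441 genes and 8092 to 11447 transcripts. It was 8859 at FDR below 0.01 and 8869 with unique reads, and 6614 with a replicate block, of which 6503 were among the 12090. For transcripts the count of 11290 became 5790 at FDR below 0.01 and 914 with the replicate block. The replicate numbers do not pair the libraries: mild and severe share only number 1, and deviations from group means correlated between same-numbered libraries at -0.01 to 0.11. Mild replicate 4 and severe replicate 5 share their number with no other library. The block therefore fits each of them exactly, and they add nothing to the contrast. How much of the lower count comes from this was not tested. Of 192 named genes, 152 stayed on the same side of the threshold with the block, 40 lost their call and none reversed. With unique reads 3 reversed, hsp70-4 (0.86), PIN1d (0.86) and HP1 (-1.98), all with hardly any unique reads, as did the tubulins TUBB7 (0.20) and TUBB6 (0.16). Without severe replicate 2, 9 of the 192 lost their call, and without each other library 7 to 18 did. Small list medians are not firm: with library size alone the glycolysis median moved from -0.06 to 0.02, and the Casparian strip median became -0.09 without severe replicate 2. Depth limits genes near 3 reads per library, where folds are not read.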

Other observations

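Gene groups outside the lists above were grouped by name after their values had been seen and are given as descriptions, beside shares over all genes of 28.1% higher and 25.8% lower. Tubulins, the subunits of microtubules, fell in 12 of 15 tested genes and rose in none: TUBA5 went from 438, 421 and 385 CPM under mild to 274, 189 and 246 CPM under severe stress, TUBA6 from 848, 848 and 780.1 CPM to 554, 387 and 492 CPM and TUBB1 from 278, 265 and 250.0 CPM to 177, 164 and 178 CPM, while TUBA4 was not called (2802, 2679 and 2525 CPM against 2869.9, 2648 and 2944 CPM). Actins and profilins fell in 6 of 11 and rose in 2. In the few unique reads (0.223% and 0.0357% of their reads), TUBB7 (-0.30 in all reads) and TUBB6 (-0.31) had the opposite sign, at 0.20 and 0.16. Tubulin and actin genes are similar in sequence, so reads may be divided among copies.

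In the flavonoid and anthocyanin pathway 4 of 8 tested genes rose and 1 fell. Besides c2, chalcone isomerase chi1 rose from 28.7, 23 and 27.2 CPM to 74.9, 141 and 104 CPM and the regulator r1 from 0.127, 0.0906 and 0.491 CPM to 3.54, 18.1 and 7.57 CPM, whereas f3h, next in the pathway, was at 1.3, 1.09 and 0.81 CPM and 1.11, 1.12 and 1.07 CPM. Of the later genes bronze1 rose by 0.82 and a2 fell (log2 FC -0.36). Genes with the symbol TPS rose in 5 of 9 and fell in 2. That symbol is used for terpene synthases and for trehalose-6-phosphate synthases, which were not told apart here, so the count describes neither family. Annexins, calcium-dependent membrane proteins, rose in 4 of 8 and fell in 1, with Ann5 going from 0.457, 0.423 and 0.319 CPM to 1.71, 4.85 and 2.6 CPM.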
